A study of Mus musculus with 3 samples.

Results

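Open chromatin sites that were called in replicates 2 and 3 of an embryonic mouse liver series, but not in replicate 1, are described here. Each of the 3 libraries has a shorter and a longer list of DNase I peaks. Overlapping peaks of the 3 shorter lists, by 1 bp or more, were merged, and a merged region became a member if it held a peak of replicates 2 and 3, no peak of replicate 1, and lay up to 100 kb from the nearest annotated transcript start. Of 61155 regions, 11134 were members, which is 18.2%. A further 131 regions with the same pattern of peaks lay beyond 100 kb and were left out. Because the members were chosen by presence and absence in these lists, their signal and their absence from replicate 1 are descriptions and were not tested. The mirror patterns were far smaller, with 555 regions in replicates 1 and 2 but not 3 and 677 in replicates 1 and 3 but not 2, while 24196 regions were common to all 3.

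All 3 libraries are liver of embryos at 13.5 days, strain C57BL/6N,129, homozygous for a globin mutation, the HS2 HS3 deletion, so the genotype is shared by all of them and none serves as a control. The labels number the samples as biological replicates with separate biosamples under 1 donor identifier, and give neither sex nor whether embryos were pooled. Libraries of unaltered liver were not analysed here. The signal of a peak is its highest cut density normalized to depth. The signals were whole multiples, within 0.05 of a step, of a step that differed by library, and if 1 step is 1 cut after scaling to a fixed total, replicate 1 had 0.664 times the cuts of replicate 2 and 0.598 times those of replicate 3. Replicate 1 was thus the shallowest by this measure and had the fewest peaks, 28209 against 57314 and 41319. The number of peaks did not follow this measure throughout, as replicate 3 was the deepest by it but had fewer peaks than replicate 2. What part depth has in the members was not tested.

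DNase I cuts DNA where nucleosomes are displaced, which happens at promoters, enhancers and insulators that bind transcription factors. Factors that sit on the DNA shield short stretches from the enzyme and leave footprints. At this age the liver is the main site of red cell formation. Its erythroid precursors depend on GATA1, TAL1 and KLF1, and hepatoblasts, macrophages, endothelial, mesenchymal and other blood cells lie beside them. In a bulk tissue, fewer cells of a type and weaker accessibility per cell cannot be told apart.

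The sequences below show members that the results turn on, as the plus strand of mm10, 5′ to 3′. Capitals mark bases inside a footprint of replicate 2 or 3. The first set holds members that replicate 1 had in its longer list. One lies at the start of the histone H3 gene Hist1h3d, one lies 4.34 kb from Timm10, a chaperone of mitochondrial import, one lies beside Bloodlinc, a noncoding RNA next to the red cell anion exchanger gene Slc4a1, one lies in an intron of Klf3, a transcription repressor, and one lies near Cebpe, a factor of granulocyte maturation.
Hist1h3d, chr13:23575621-23575762: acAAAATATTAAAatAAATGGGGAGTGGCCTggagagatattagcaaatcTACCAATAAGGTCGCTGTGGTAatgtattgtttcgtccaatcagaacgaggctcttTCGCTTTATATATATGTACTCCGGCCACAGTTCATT
Timm10, chr2:84831721-84831920: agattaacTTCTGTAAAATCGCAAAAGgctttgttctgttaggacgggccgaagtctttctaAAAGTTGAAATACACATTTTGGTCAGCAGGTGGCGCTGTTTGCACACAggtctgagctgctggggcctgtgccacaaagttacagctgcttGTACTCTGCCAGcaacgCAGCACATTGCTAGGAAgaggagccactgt
Bloodlinc and Slc4a1, chr11:102375331-102375530: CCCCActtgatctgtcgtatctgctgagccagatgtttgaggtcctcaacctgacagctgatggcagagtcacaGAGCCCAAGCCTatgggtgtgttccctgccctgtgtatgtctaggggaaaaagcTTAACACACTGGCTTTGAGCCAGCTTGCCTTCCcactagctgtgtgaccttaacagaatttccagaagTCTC
Klf3, chr5:64813581-64813760: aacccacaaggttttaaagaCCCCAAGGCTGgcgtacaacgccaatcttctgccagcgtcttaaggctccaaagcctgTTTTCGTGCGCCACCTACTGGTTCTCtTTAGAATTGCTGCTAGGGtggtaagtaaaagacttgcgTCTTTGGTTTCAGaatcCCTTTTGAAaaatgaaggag
Cebpe, chr14:54714161-54714360: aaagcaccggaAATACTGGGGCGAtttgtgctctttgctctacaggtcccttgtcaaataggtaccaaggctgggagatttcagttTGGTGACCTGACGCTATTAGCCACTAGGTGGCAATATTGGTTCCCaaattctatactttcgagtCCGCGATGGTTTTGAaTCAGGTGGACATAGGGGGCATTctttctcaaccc
The second set holds members that were in neither list of replicate 1. Smdt1 encodes a regulator of the mitochondrial calcium uniporter and Nubp1 an iron-sulfur cluster assembly factor. Snord118 is the U8 small nucleolar RNA beside Tmem107, and Chd7 encodes a chromatin remodeller. The last pair of this set, at Snord118 and Chd7, was chosen after the values were seen.
Smdt1, chr15:82346201-82346400: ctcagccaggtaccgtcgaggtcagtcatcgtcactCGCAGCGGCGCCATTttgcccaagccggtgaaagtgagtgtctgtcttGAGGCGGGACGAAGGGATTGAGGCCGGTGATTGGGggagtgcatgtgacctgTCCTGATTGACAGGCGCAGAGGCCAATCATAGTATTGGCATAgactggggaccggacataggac
Nubp1, chr16:10412081-10412280: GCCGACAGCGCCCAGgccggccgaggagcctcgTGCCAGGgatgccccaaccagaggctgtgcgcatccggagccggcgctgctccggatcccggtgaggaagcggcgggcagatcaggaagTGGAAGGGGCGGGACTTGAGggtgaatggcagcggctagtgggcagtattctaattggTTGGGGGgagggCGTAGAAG
Snord118 and Tmem107, chr11:69073387-69073586: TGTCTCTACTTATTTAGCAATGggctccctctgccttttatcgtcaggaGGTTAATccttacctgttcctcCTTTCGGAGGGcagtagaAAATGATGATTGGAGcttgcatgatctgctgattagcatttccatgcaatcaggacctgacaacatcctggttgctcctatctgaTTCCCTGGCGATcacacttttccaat
Chd7, chr4:8685691-8685890: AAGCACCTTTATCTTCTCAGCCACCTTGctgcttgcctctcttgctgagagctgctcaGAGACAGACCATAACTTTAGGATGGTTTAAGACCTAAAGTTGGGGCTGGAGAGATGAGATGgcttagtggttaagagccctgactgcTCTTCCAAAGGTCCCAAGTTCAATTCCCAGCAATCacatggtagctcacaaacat
The third set holds members of the globin loci. The Nprl3 introns hold enhancers of the alpha globin genes, and Hbb-y encodes the embryonic epsilon-y globin.
Nprl3, chr11:32251029-32251228: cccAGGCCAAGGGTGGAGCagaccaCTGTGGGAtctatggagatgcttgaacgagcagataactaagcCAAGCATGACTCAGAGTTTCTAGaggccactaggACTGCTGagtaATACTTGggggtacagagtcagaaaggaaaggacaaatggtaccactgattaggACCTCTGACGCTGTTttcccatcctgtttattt
Hbb-y, chr7:103859181-103859380: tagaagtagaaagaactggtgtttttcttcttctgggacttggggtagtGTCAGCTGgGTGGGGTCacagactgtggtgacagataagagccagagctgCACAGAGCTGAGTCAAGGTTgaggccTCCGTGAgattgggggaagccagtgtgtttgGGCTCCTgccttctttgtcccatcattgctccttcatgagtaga
The Klf3 stretch held the CTCF motif at bases 88 to 99 and the Cebpe stretch at bases 107 to 118, counted from the first base printed, wholly inside capitals in both. In the Smdt1 stretch the NF-Y box CCAAT, read on either strand, lay inside capitals at bases 114 to 118, 159 to 163 and 170 to 174. The Chd7 stretch held a GATA motif at bases 9 to 14. The core TGANTCA of NF-E2 and AP-1 lay at bases 75 to 81 of the Nprl3 stretch and at bases 108 to 114 of the Hbb-y stretch. These are matches of letters, not shown binding.

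The median signal of members was below that of the common regions, and most members were present in the longer list of replicate 1. Of the members, 6321 (56.8%) had a peak in the longer list of replicate 1 and are called listed here, and 4813 (43.2%) had none and are called unlisted. Listed members had a median signal of 0.806 in replicate 1, 0.996 in replicate 2 and 0.897 in replicate 3. Unlisted members had a median of 0.853 in replicate 2 and 0.753 in replicate 3. Regions common to all 3 had medians of 2.36, 2.79 and 2.35, so the members lay well below them in both libraries that called them. For listed members the log2 ratio of replicate 1 to the geometric mean of replicates 2 and 3 had a median of -0.21, with 80% of values between -0.79 and 0.26, against -0.13 in the common regions. Replicate 1 was the higher in 1870 listed members, or 29.6%. The same share was 34.5% in common regions and 33.4% over all regions with a value in each library. The signal of replicate 1 at listed members was above the 5th percentile of its own shorter list in 64.3% of them. It was above the median of that list in only 0.997%. A base with a false discovery rate (FDR) below 0.001 in replicate 1 was present in 13.4% of listed members and in 100% of the common regions.

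**Figure D1:**
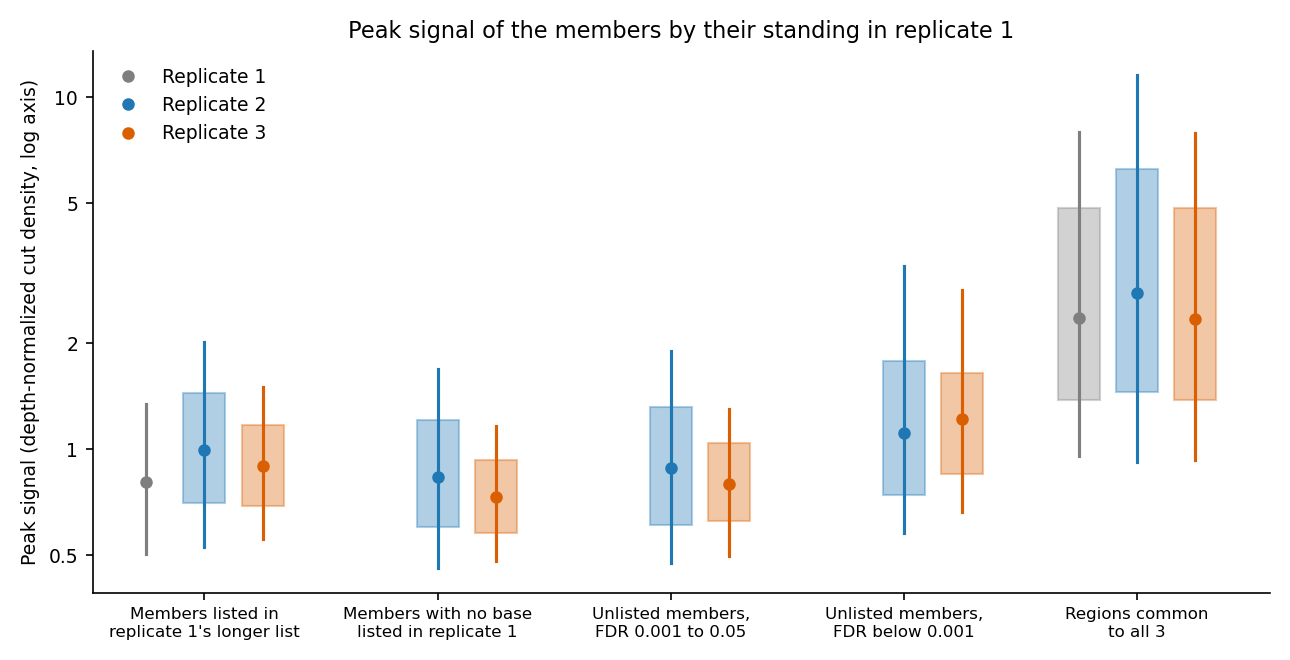
Peak signal on a log axis for members grouped by their standing in replicate 1 and for regions common to all 3 replicates. Points are medians over regions, boxes span the quartiles and lines the middle 80% of regions. For listed members, replicate 1 is taken from its longer list and has no box. Listed members have medians of 0.806, 0.996 and 0.897, below the 2.36, 2.79 and 2.35 of the common regions.

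The unlisted members were of unlike kinds. The deposited FDR file lists only bases below 0.05. In 3825 unlisted members (34.4% of all members) no base was listed in replicate 1, in 672 the lowest FDR lay between 0.001 and 0.05, and in 316 it was below 0.001. Those 316 were not closed in replicate 1 by this measure: every base was listed in 62.3% of them, 95.3% lay within 1 kb of a start, 98.4% lay within 1 kb of a common region, and 33.9% lay within 100 bp of a shorter-list peak of replicate 1. Among all unlisted members 2.72% had a replicate 1 peak that close, and among those with no listed base 0.261%. The share of listed members rose with signal, from 41.5% of the 887 members with a geometric mean signal up to 0.5 to 70.9% of the 385 members between 2 and 3. All 12 members above 5 were unlisted with an FDR below 0.001 in replicate 1, and 11 of these 12 lay within 100 bp of a replicate 1 peak.

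**Figure D2:**
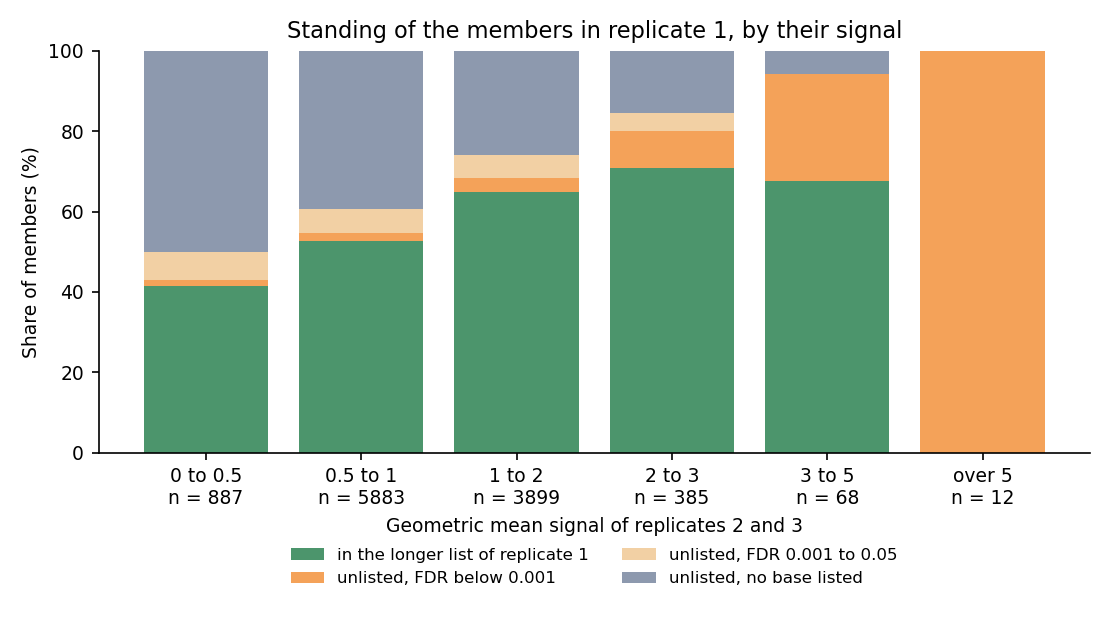
Share of members by their standing in replicate 1, for bins of the geometric mean signal of replicates 2 and 3. The number of members is under each bar. The listed share is 41.5% in the lowest bin and 70.9% between 2 and 3, and all 12 members over 5 are unlisted with an FDR below 0.001.

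The strongest member of all was the site 124 bp from a start of Smdt1. Its signal was 15.1 in replicate 2 and 8.51 in replicate 3, and its lowest FDR in replicate 1 was 2.07e-17, with the nearest replicate 1 peak 40 bp away. At Idi1, an enzyme of sterol synthesis, the signals were 9.35 and 7.14, and a replicate 1 peak abutted the region. At Nhej1, a DNA repair gene, they were 9.20 and 5.36, and the nearest replicate 1 peak lay 180 bp away. At Nubp1 they were 8.28 and 5.51 with an abutting replicate 1 peak. Hps5, 1700123O20Rik, Atraid and Bad completed the 8 strongest unlisted members, with replicate 2 signals from 6.50 to 7.94 and replicate 3 signals from 5.55 to 6.71. In all 8 every base was listed in replicate 1. These sites thus passed the FDR limit in replicate 1 although neither of its lists held a peak in the region.

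The 8 strongest listed members are given here with all 3 libraries. The site at the start of Hist1h3d had 6.06 in replicate 2, 4.0 in replicate 3 and 1.65 in the longer list of replicate 1. The Timm10 site had 6.37, 3.65 and 2.03 in the same order. The site 3.40 kb from Rpl3, a ribosomal protein gene, had 5.21, 4.06 and 3.41. Replicate 1 was the lowest of the 3 libraries at each of these. In an intron of Rpl3, 0.208 kb from the small nuclear RNA gene Gm24204, the member had 5.22, 3.64 and 3.74, so replicate 1 was above replicate 3 there. The member 1.42 kb from Bloodlinc and 9.98 kb from Slc4a1 had 6.39 in replicate 2, 2.83 in replicate 3 and 2.85 in replicate 1, so replicates 1 and 3 were alike there and replicate 2 stood alone. A pair of members 11.6 and 15.1 kb from Btn2a2 both covered transfer RNA genes, with 5.03 and 5.41 in replicate 2, 3.67 and 3.80 in replicate 3, and 2.09 and 1.52 in replicate 1. Hist1h3a had 4.25, 4.30 and 1.51 in replicates 2, 3 and 1.

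Members with no listed base in replicate 1 were led by the Snord118 site, with 6.85 in replicate 2 and 2.85 in replicate 3. The site 4.51 kb from Chd7 had 5.87 and 2.01. The site 0.858 kb from Ap5s1 had 5.10 and 2.03, and a site 6.95 kb from Trim27 that covered a transfer RNA gene had 5.08 and 1.76. In these 4 replicate 2 was from 2.41 to 2.92 times replicate 3. A site in an intron of Cldn10, a tight junction gene, had 3.32 and 2.78, and one at Pi4kb, a phosphatidylinositol kinase gene, had 2.84 and 2.98, so both libraries were alike there. These 6 were chosen after the values were seen. An unlisted base missed the FDR limit, and cuts below that limit may still be present.

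Members lay away from starts. Of all members 27.8% lay within 1 kb of a start, 40.3% between 1 and 10 kb and 31.9% between 10 and 100 kb, while 63.6% of the common regions lay within 1 kb. A start was covered by 9.29% of members and 46.0% of common regions. Listed members had 29.5% within 1 kb and those with no listed base 19.1%, and the regions of replicate 2 alone had 24.8%. By the position of their midpoint 49.1% of members were intronic, 37.1% intergenic, 6.47% in an exon with UTR annotation and 7.30% in another exon. The nearest start belonged to a protein-coding gene in 66.5% of members and 79.7% of common regions, and to a lincRNA in 8.70% and 5.63%. The median width was 200 bp in members and in all regions, 260 bp in common regions and 155 bp in regions of replicate 2 alone. At the 100 kb limit, the last members inside were an intronic site of Pde11a at 99.4 kb, with signals of 0.996 and 0.716 in replicates 2 and 3, a site at 99.6 kb with 0.326 and 0.429 and one at 99.7 kb with 1.09 and 0.693. The first regions outside, at 100033, 100354 and 100527 bp, had 0.536 and 0.527, 0.502 and 0.663, and 0.586 and 0.520.

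**Figure D3:**
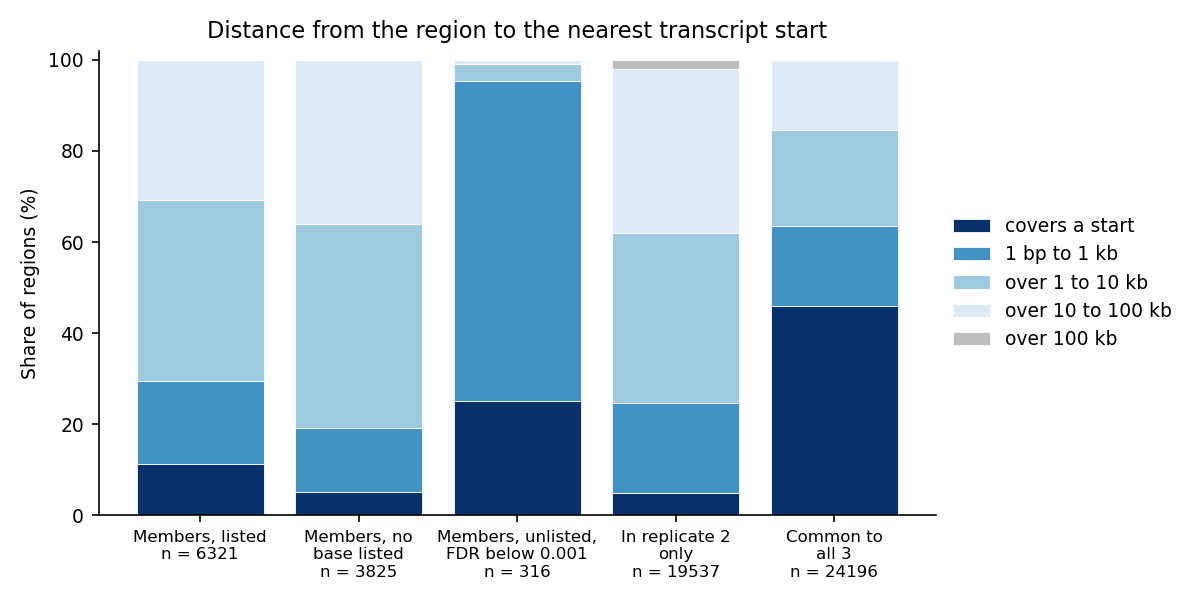
Distance from each region to the nearest transcript start, as stacked shares of 3 classes of members, regions of replicate 2 alone and regions common to all 3 replicates. The classes of members are those listed in replicate 1, with no listed base there, and unlisted with an FDR below 0.001. Within 1 kb lie 29.5%, 19.1% and 95.3% of these classes, 24.8% of the regions of replicate 2 alone and 63.6% of the common regions.

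Footprints were called in both libraries at most members. They were derived from alignments of the same samples as the peaks, and members had to hold a peak in both libraries. Their footprint shares are therefore not independent of the choice. A footprint of replicate 2 and one of replicate 3 were present in 82.7% of members, against 92.3% of common regions and 24.4% of regions in replicate 2 alone. The last were chosen to lack a replicate 3 peak, so that contrast is not independent of the choice either. In 68.8% of members a footprint of replicate 2 shared bases with one of replicate 3. Beyond 1 kb from a start, where the common regions had 97.4%, members had 89.8%, and within 1 kb members had 64.3% against 89.4%. In replicate 1 a footprint was called in 76.1% of listed and 1.89% of unlisted members. The 316 unlisted members with an FDR below 0.001 in replicate 1 had footprints of both libraries in only 23.4%, although their median signals of 1.11 and 1.22 exceeded those of other members. Members with most replicate 2 footprints overlapped by replicate 3 were a site 36.1 kb from Vmn1r223 covering transfer RNA genes, with 9 shared of 10, the 1700123O20Rik promoter with 7 of 9, a site 34.0 kb from Rbm38 with 7 of 7, a site 1.90 kb from Ftl1, the ferritin light chain gene, with 7 of 9, and the Idi1 promoter with 6 of 7, the one of highest score among 9 members that had 6. The Hbb-y member had 5 footprints in replicate 3 and 0 in replicate 2.

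The signal ratio of replicate 2 to replicate 3 varied among members by more than its centre departed from 0. Its log2 median was 0.15, with the quartiles at -0.17 and 0.50, and replicate 2 was the higher in 61.6% of members. Common regions had a median of 0.23, and 69.1% were higher in replicate 2. Within 1 kb of a start the members' median was 0.01 and beyond it 0.20, while the common regions had 0.27 and 0.16. Among members of signal above the median, the highest ratios were at a site 33.8 kb from Gm22326, with 2.68 in replicate 2 and 0.512 in replicate 3, at Tmx1, a thioredoxin-like gene, with 4.69 and 0.942, and at a site 29.9 kb from Neu3, a sialidase gene, with 4.60 and 0.972. The lowest were at Nxph3 with 0.619 and 1.54, at Epn1, an endocytosis gene, with 0.577 and 1.40, and at Ppp1r13l with 0.711 and 1.49.

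Members were poorer in G and C than the common regions, and the difference followed location in part. In windows of 200 bp at the midpoint the median GC content was 51.5% against 60.5%. Beyond 1 kb it was 50% against 53.5%, and within 1 kb 55.5% against 65.0%. A ratio of observed to expected CpG above 0.6 was seen in 34.3% of members within 1 kb and in 77.3% of common regions there. The mean share of bases marked as repeats in the genome was 12.9% against 6.86%. These traits were not particular to members. Regions of replicate 2 alone had a median GC content of 49.5%, a CpG ratio above 0.6 in 24.0% within 1 kb, and 14.8% repeats. Over all regions the values were 54%, 59.9% and 11.0% in the same order.

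Motifs were searched on both strands in the same windows, and the shares below are for regions beyond 1 kb from a start, to keep promoters apart. A GATA motif, AGATAA or TGATAA, was present in 27.3% of 8042 members, 21.8% of 8810 common regions and 34.4% of 14699 regions in replicate 2 alone, and in 27.9% of all regions there. The CTCF motif was present in 17.4% of members, 20.7% of common regions and 8.05% of regions of replicate 2 alone, with 13.3% of all. It lay inside a footprint of both libraries, allowing 3 bp at each side, in 11.8% of members and 19.2% of common regions. The KLF motif CCNCNCCC, which can overlap the Sp box GGGCGG, was present in 24.9% of members and 2644 of the 8810 common regions, against 26.1% of all regions, and was footprinted in both libraries in 4.2% and 10.6%. The E-box CAGCTG or CATCTG, of TAL1 and other bHLH factors, had almost the same share in members and common regions, 30.1% and 29.9%, with 30.2% of all. The core of NF-E2 and AP-1 was present in 6.95% of members, 6.80% of common and 8.0% of all regions.

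The ratio of the libraries moved with the GATA motif. Among members beyond 1 kb the median log2 ratio of replicate 2 to replicate 3 was 0.43 with a GATA motif and 0.13 without one, and among common regions 0.58 and 0.09. With the CTCF motif it was 0.12 and without it 0.22, and in common regions -0.02 and 0.23. Windows that held the core of NF-E2 and AP-1 had 0.32 and those without 0.19. With and without a GATA motif the medians were 0.50 and 0.09 in listed members and 0.37 and 0.17 in unlisted members, and whether these differences are unequal was not tested. These medians are over regions of the same 2 libraries, so they describe those libraries. Whether the libraries differ in their share of erythroid cells was not tested.

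Of 21842 protein-coding genes, 7155 (32.8%) had a member nearest to one of their starts. Most of these, 4657 genes, had 1 member, 2356 had 2 to 4 and 142 had 5 or more. In the erythroid lists together 45 of 78 genes (57.7%) had a member. These genes also had more regions of any kind, 7.28 a gene against 2.80 over all genes, and of those 568 regions 13.7% were members, below the 18.2% of all regions. With lists of equal length that order turned, to 13% of their regions against 9.01% of all. Of their 78 members 49 (62.8%) were listed, and the median log2 ratio of replicate 2 to 3 was 0.34. A GATA motif was present in 39 of these 78 members, against 24.1% of all members. Of the 78, 54 lay beyond 1 kb from a start, and over all members the share was 27.3% beyond 1 kb and 15.8% within it. The other regions near erythroid genes were not compared, so the motif is not shown to be a trait of the members there.

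Among erythroid transcription factors 15 of 22 genes (68.2%) had a member, against 32.8% of all genes. These genes had 11.2 regions each, against 2.80 over all genes, and 12.1% of those regions were members, against 18.2% of all regions. The strongest member lay in an intron of Klf3, with 4.14 in replicate 2, 3.13 in replicate 3 and 1.79 in replicate 1. The next lay in Zfpm1, the GATA1 partner FOG1, with 1.94, 2.38 and 2.51, where replicate 1 was the highest of the 3. Among genes of the red cell membrane and its effectors 18 of 26 (69.2%) had a member, led by the Slc4a1 site above, and 17.1% of their regions were members. A site 4.39 kb from Epb41, protein 4.1 of the membrane skeleton, had 3.36, 2.43 and 2.49 in replicates 2, 3 and 1. Among genes of heme and iron 10 of 20 had a member, and 11.8% of their regions were members. The strongest lay 43.1 and 46.5 kb from Slc25a37, the mitochondrial iron importer, with 2.43, 2.59 and 2.63 at one and 2.72, 1.97 and 1.95 at the other. The values of replicate 1 at Zfpm1, Epb41 and the first Slc25a37 site were within or above those of the other libraries, although its shorter list held no peak there.

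Among markers of other cells of the liver the share of genes with a member ran from 14.3% in the endothelial and bile duct lists to 58.3% in the mesenchymal list, against 32.8% of all genes, and members were 18.2% of all regions. Neuron and glia genes, a comparison list, had the same 7 of 12, with 24.4% of their regions as members. Of hepatoblast and fetal hepatocyte genes 11 of 30 (36.7%) had one, and 12.5% of their 112 regions were members. A shorter-list peak lay within 1 kb of a start in 7, 22 and 8 of these genes in replicates 1, 2 and 3. These are 23.3%, 73.3% and 26.7%, against 51.4%, 57.8% and 55.7% of all protein-coding genes. Replicate 2 thus stood apart and replicates 1 and 3 were close, with shorter lists of 28209, 57314 and 41319 peaks in replicates 1, 2 and 3. The strongest members of this list were the Foxa3 promoter, with 1.32 in replicate 2 and 1.45 in replicate 3, and a site 43.0 kb from Onecut1 with 1.54 and 0.949. Both genes encode hepatic transcription factors. Of adult hepatocyte genes 6 of 16 had one. Of mesenchymal and stellate genes 7 of 12 had one, and 17 of their 53 regions (32.1%) were members. Examples were an Acta2 intron with 1.61 and 0.972 and a site 1.44 kb from Cxcl12, a chemokine gene, with 1.23 and 1.03. Of endothelial genes 2 of 14 had one, of macrophage genes 3 of 16, of neutrophil genes 3 of 12, and of B lymphoid genes 4 of 10. The part of these cells in the members was not tested.

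Of stem and progenitor genes 9 of 15 had a member, against 32.8% of all genes, and 17.1% of their 111 regions were members, against 18.2% of all regions. The strongest were a pair of sites 303 and 321 kb from the coding start of Runx1, a factor of blood stem cells, and 56.8 and 74.8 kb from the noncoding Gm28003. They had 2.87 and 2.42 in replicate 2 and 1.05 and 1.18 in replicate 3, and no base was listed in replicate 1. The Cebpe site had 2.91, 1.44 and 1.18 in replicates 2, 3 and 1. A gene nearest to a site need not be the gene that it regulates.

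**Figure D4:**
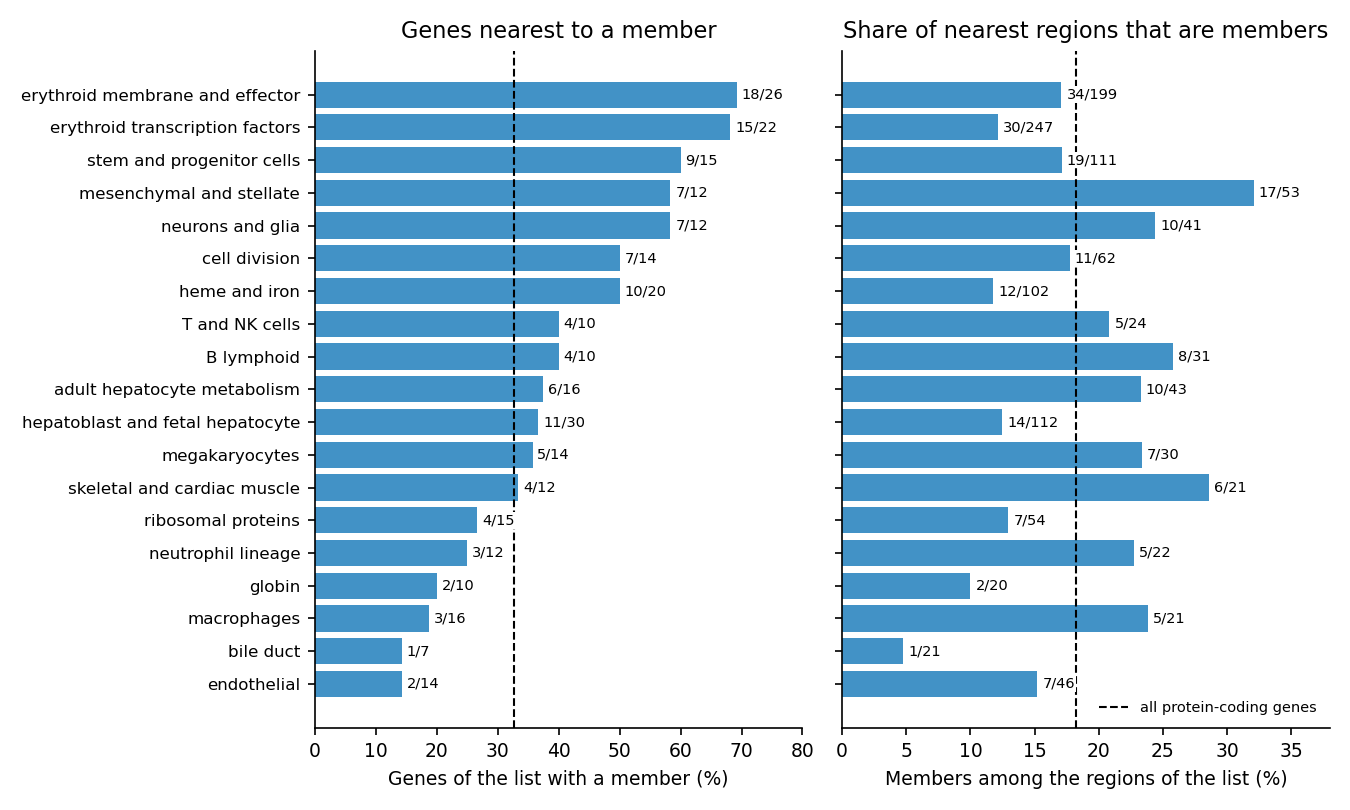
Left, share of the genes of each list with a member nearest to one of their starts. Right, share of the regions nearest to the list's genes that are members, with counts beside each bar. Dashed lines mark all protein-coding genes, at 32.8% and 18.2%. Both leading erythroid lists lie above the line on the left, at 18 of 26 and 15 of 22 genes, and below it on the right, an order that turns for the erythroid lists together when the peak lists are equally long (13% against 9.01%).

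At the globin loci few sites were members. The strongest lay in Nprl3, with 6.38 in replicate 2, 2.04 in replicate 3 and 2.24 in the longer list of replicate 1, so replicate 2 was 3.13 times replicate 3 and replicates 1 and 3 were close. The member 5.97 kb from Hbb-y had 1.99, 1.32 and 0.832. A member 0.972 kb from Hbb-bs, an adult beta globin gene, had 0.962 and 0.874, was unlisted in replicate 1 and had a lowest FDR of 0.0463 there. In all, 2 of 10 globin genes (20%) had a member nearest to a coding start, against 32.8% of all genes. Of the 20 regions nearest to globin genes 10% were members, against 18.2% of all regions, in a list too short to compare. Regions of replicate 2 alone were 60% of those 20, against 31.9% of all regions.

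Some genes had many members, while 18.2% of all regions were members. Gse1 had the most, 14, of which 11 were listed, and its signals ran from 0.686 to 3.08 in replicate 2 and from 0.776 to 1.77 in replicate 3. The gene body held 61 regions, of which 13 were members and 25 were common to all 3. Of those 13 members, 6 were higher in replicate 2 and 7 in replicate 3. At the 10 listed ones the log2 ratio of replicate 1 to the others had a median of 0.23. Tcf7l2, a factor of Wnt signalling, had 10, all listed, and 8 of the 17 regions in its gene body were members. For those 8 the median log2 ratio of replicate 1 to the others was 0.09. Replicate 1 was below the geometric mean of the others at 2 of those 10 Gse1 members and at 3 of those 8 Tcf7l2 members. Pde4d, a phosphodiesterase gene, had 10, Trak1 had 9, and Camk1g, Elmo1, Ier2 and Megf11 had 8 each. Regions common to all 3 libraries numbered 11 at Pde4d, 5 at Trak1, and 1, 2, 9 and 9 at the others in that order.

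At Slc2a1, the gene of the glucose transporter GLUT1, 8 of the 19 regions in the gene body were members. None of these 8 was listed or had a listed base in replicate 1. Their signals were low, from 0.293 to 0.812 in replicate 2 and from 0.505 to 0.686 in replicate 3, and 7 of 8 were higher in replicate 3. They were broad, from 239 to 900 bp, with a median of 552.5 bp against 200 bp for all members. Both libraries had a footprint at 4 of the 8.

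At Firre, a noncoding RNA gene of the X chromosome with repeated segments, 9 of the 24 regions in the gene body were members, all in introns. The nearest coding gene is Olfr1324, an olfactory receptor gene, and it had 10 members, tied with Pde4d, Slc2a1 and Tcf7l2. All 9 were higher in replicate 2, whose signals ran from 1.12 to 3.82, against 0.565 to 1.16 in replicate 3, so the libraries overlapped only at that edge. The 6 listed members had 0.592 to 0.945 in replicate 1, in the range of replicate 3. The median fold of replicate 2 over replicate 3 was 2.44, and the 4 common regions in the gene had a median log2 ratio of 1.02 against 1.29 for the members. Members on the X chromosome as a whole had a median of 0.23 (283 members). The Y chromosome had 28, 30 and 43 shorter-list peaks in replicates 1, 2 and 3. The sex of the embryos is not in the labels, and its part in these values was not tested.

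**Figure D5:**
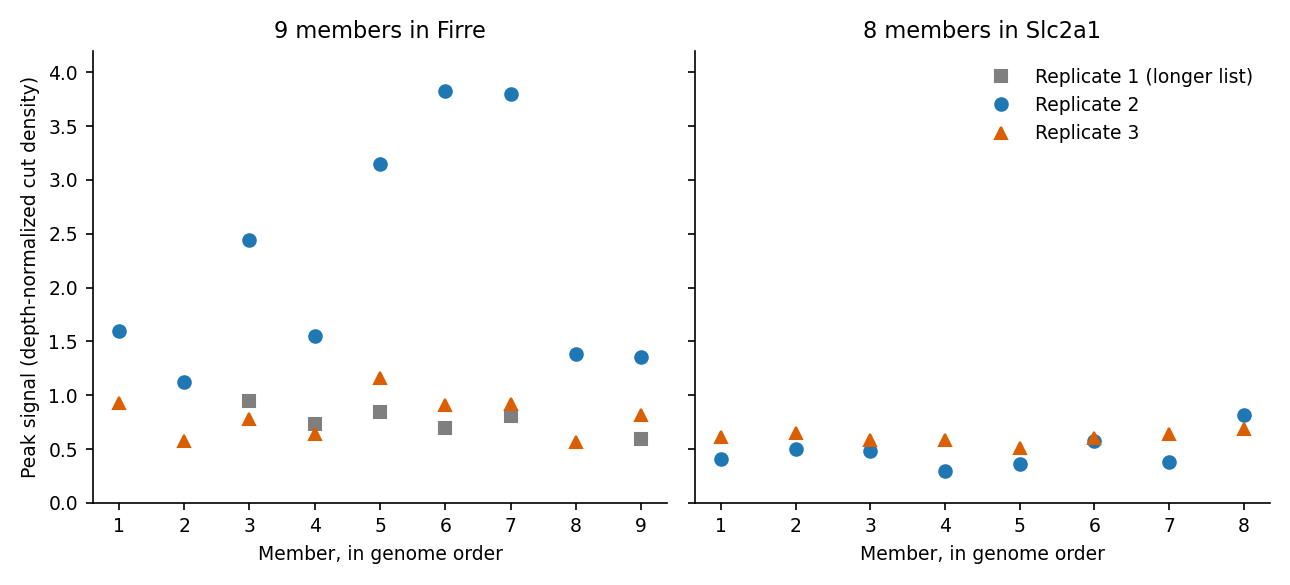
Peak signal of the 9 members in Firre and the 8 members in Slc2a1, in genome order, by replicate. A missing grey square means that the longer list of replicate 1 held no peak there. In Firre replicate 2 lies above replicate 3 at all 9 members, and in Slc2a1 replicate 3 lies above replicate 2 at 7 of 8.

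The strongest Firre members share sequence. In the stretches below capitals mark bases covered by runs of 16 bases that also occur, on either strand, in another of the 9 members.
Firre 3, chrX:50600351-50600550: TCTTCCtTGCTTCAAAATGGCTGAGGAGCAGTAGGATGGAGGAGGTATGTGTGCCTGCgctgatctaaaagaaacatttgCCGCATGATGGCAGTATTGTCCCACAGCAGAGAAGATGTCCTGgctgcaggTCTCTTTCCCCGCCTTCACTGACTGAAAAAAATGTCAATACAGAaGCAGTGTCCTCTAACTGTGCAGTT
Firre 5, chrX:50602971-50603170: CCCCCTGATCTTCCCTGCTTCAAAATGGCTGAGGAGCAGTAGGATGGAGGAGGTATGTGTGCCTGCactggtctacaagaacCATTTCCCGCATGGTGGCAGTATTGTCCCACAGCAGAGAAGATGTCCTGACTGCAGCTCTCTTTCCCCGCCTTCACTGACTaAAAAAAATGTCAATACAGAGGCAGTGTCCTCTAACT
Firre 6, chrX:50612301-50612500: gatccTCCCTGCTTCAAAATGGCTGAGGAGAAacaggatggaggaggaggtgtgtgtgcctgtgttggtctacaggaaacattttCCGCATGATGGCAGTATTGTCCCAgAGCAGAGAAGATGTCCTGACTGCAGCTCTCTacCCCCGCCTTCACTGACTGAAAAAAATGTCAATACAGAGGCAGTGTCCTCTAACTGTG
Firre 7, chrX:50614961-50615160: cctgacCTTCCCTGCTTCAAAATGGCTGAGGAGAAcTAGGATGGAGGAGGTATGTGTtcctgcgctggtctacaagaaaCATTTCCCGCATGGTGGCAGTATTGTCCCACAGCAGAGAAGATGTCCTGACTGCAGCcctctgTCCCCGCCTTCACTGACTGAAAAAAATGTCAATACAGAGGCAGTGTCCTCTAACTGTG
Shared runs covered 81.8%, 88.6%, 69.5% and 82.5% of these 4 members in the order printed. Their replicate 2 signals of 2.44, 3.15, 3.82 and 3.80 were the highest of the 9. Their replicate 3 signals were 0.776, 1.16, 0.912 and 0.919 and their replicate 1 signals 0.945, 0.844, 0.693 and 0.806. Members 1, 2 and 4 shared runs over 41.7%, 33.8% and 38.4% and had 1.60, 1.12 and 1.55 in replicate 2, so the lowest of the 9 also held shared runs. The members numbered 8 and 9 shared no such run and had 1.38 and 1.36 in replicate 2 against 0.565 and 0.814 in replicate 3. How reads in repeated stretches were placed is not given in the sources used here.

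Other repeated genes were also among the members. Near Hist1 histone genes 29 of 163 regions (17.8%) were members, close to the share of all regions, with 17 of them listed and medians of 2.01 and 1.26 in replicates 2 and 3, a log2 ratio of 0.70. Transfer RNA genes were covered by 27 members (9.89% of the 273 regions that covered one, against 86.1% that were common to all 3), with medians of 2.28 and 1.67. Where the nearest start was that of a small nucleolar RNA, 134 of 587 regions (22.8%) were members. Copies of histone and transfer RNA genes are near-identical, so values at single copies are uncertain.

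When each library was cut to its 28209 strongest peaks, so that all 3 lists were equally long, 3167 regions had the members' pattern, and 28.4% of the members shared a base with one of them. The lowest signal kept was then 1.08 in replicate 2 and 0.934 in replicate 3. In replicate 1, whose shorter list was kept whole, it was 0.0882. For 49.9% of the members no library kept a peak at all. The mirror patterns changed too, with 631 regions in replicates 1 and 2 but not 3 and 2007 in replicates 1 and 3 but not 2. At equal length 37 of the 78 erythroid genes (47.4%) had a member, against 11.5% of all protein-coding genes, and 13% of their regions were members against 9.01% of all regions. In the hepatoblast list 2 of 30 genes had one, and 5.88% of their regions were members. The place of the erythroid regions relative to all regions thus turned from below to above with equal lists, and that of the hepatoblast regions did not. Before that cut, erythroid members had median signals of 1.64 and 1.21 in replicates 2 and 3, and hepatoblast members 0.841 and 0.727. All members had 0.937 and 0.829. What part signal has in the turn was not tested. Without a second group and with regions chosen on the 3 libraries themselves, no test between groups was possible.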

How the data were processed

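DNase-seq peak lists, footprints and FDR tracks of 3 liver samples in 1 group were used. Per the labels they are on mm10, and the notes deposited beside the files say that each was derived from alignments, per sample. Aligner and callers: not given in the sources used here. Peak signal as deposited is the highest cut density of a peak, normalized to read depth by the authors. The deposited FDR values, a q-value for local cut density, are listed below 0.05 only. Deposited footprints all carry a q-value of 0.01, so presence alone was used.

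Peaks of the shorter lists were joined at 1 bp of overlap, and overlaps and distances were computed with Python 3.11.15, pandas 2.3.3 and bedtools 2.31.1, checked on simulated intervals. Transcript starts were those of GENCODE M21, and bases were read from GRCm38.p6, which is mm10. A footprint, peak or FDR base counted if it shared 1 bp with a region. The score of a member is the geometric mean of its signals in replicates 2 and 3. Named are the 8 members of highest score in the listed and unlisted classes, the 2 of highest score per gene list (those shown are the ones the text needs), globin and Nprl3 members, the 3 at each end of the ratio, the 5 with most shared footprints, the 10 genes with most members, and the 3 regions on each side of the distance limit. The members and the 19 gene lists were chosen with earlier results of these data known. The 17 motifs were searched in windows of 200 bp. Replicates vary in depth as given in the report, and intervals of 95% used to judge alternatives (Wilson for shares) cover counting error over regions only. Equal list lengths, a stricter threshold, the longer lists, other joining rules and each replicate left out were tried.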

Additional observations from a re-analysis of the deposited data

How the results depend on the processing

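The number of members, 11134, was 3167 with equally long lists and 5976 with peaks of the upper 50% of signal, and ran from 14931 to 35435 with 1 replicate left out, when 1 library fewer was required. The share in the longer list of replicate 1, 56.8%, was 67.6% with equal lists, 94.2% with the upper 50%, 29.4% to 50.03% with a replicate left out and 58.4% without the 316 unlisted members of FDR below 0.001, an alternative chosen after seeing the data. The share within 1 kb, 27.8%, was 40.1% with the upper 50%, 25.1% with the longer lists, 26.5% with peaks up to 100 bp apart joined, 21.8% for coding starts, 20.4% for 500 bp, 25.8% without those 316, and 26.6% to 52.6% with a replicate left out. The share with footprints of both libraries, 82.7%, was 90.9%, 92.2% and 62.8% with equal lists, the upper 50% and the longer lists. It was 84.0% with joined peaks, 68.8% when the footprints had to overlap, 84.5% without the 316 and 89.1% without replicate 1. Without replicate 2 only a footprint of replicate 3 was required, and the share was 78.0%. Without replicate 3 only a footprint of replicate 2 was required, and the share was 75.1%. The median log2 ratio of replicate 2 to 3, 0.15, was 0.34, 0.10 and 0.13 with equal lists, the upper 50% and the longer lists, and 0.21 without replicate 1. Hepatoblast genes with a member, 11, were 2 with equal lists, 6 with the upper 50% and 14 to 26 with a replicate left out, and erythroid genes, 45, were 49 to 73 in the last case. The cause of these changes was not tested. The share in the longer list could not be computed with the longer lists themselves or without replicate 1, nor the ratio without replicate 2 or 3. No paired analysis was possible because there is 1 group.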
